A study of Macaca mulatta with 18 samples.

Results

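GZ-only loops are chromatin loops of the macaque fetal brain that were called in the tissue labelled GZ and had no counterpart in the tissue labelled CP. They were chosen from the GZ loop list as autosomal loops spanning over 100 kb and up to 2 Mb for which no CP loop had both anchors within 1 bin of 10 kb. The rule gave 5119 loops of the 15048 in the GZ list, which is 48.4% of the 10585 GZ loops in that span window. The other 5466 GZ loops of the window, called shared loops here, had such a CP loop. The mirrored rule in the CP list gave 1017 CP-only loops. The study profiled wild-type rhesus macaque fetuses at embryonic day 84, with 3 Hi-C libraries for GZ and 3 for CP and 1 library each for CTCF ChIP-seq and DNase-seq in either tissue. Both abbreviations stand as labelled, without a definition, and the labels name no treatment. The Hi-C titles carry 3 sample codes that recur in both tissues.

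A chromatin loop brings a pair of distant sites, its anchors, into frequent contact. In the current model the cohesin ring extrudes DNA until it meets the zinc finger protein CTCF bound at both anchors, and loops without CTCF often join promoters and enhancers in open chromatin. Hi-C counts ligated pairs of fragments to find such contacts. Cutting by DNase shows where chromatin is accessible, and ChIP-seq against CTCF shows where the protein is bound. Domain boundaries are places where contacts across a site are depleted, and many of them also hold CTCF.

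Each tissue had 1 loop list for its 3 Hi-C libraries, so no spread between libraries could be computed and no difference between tissues was tested. Intervals below are 95% Wilson intervals on shares or 95% intervals of a difference, and they cover counting error only. GZ-only loops shared anchors with each other (8260 distinct bins for 10238 anchor ends), so these intervals are too narrow. More contacts were counted in GZ at loops of both lists, and contact totals of the libraries were not compared. At 3867 loops of the window that both lists place in identical bins, GZ had a median of 1.46 times as many observed contacts as CP. Expected contacts were 1.27 times as many there, and the ratio of observed to expected was 1.14 times as high. Being GZ-only means absence from the shorter CP list, and contacts in CP at these bins were not analysed here. A loop present in fewer cells and a loop with fewer contacts per cell cannot be told apart in these bulk libraries.

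With the full lists, GZ-only loops were longer than shared loops. Their span had a median of 460 kb and quartiles of 250 kb and 840 kb, against a median of 410 kb and quartiles of 240 kb and 730 kb in shared loops. In CP-only loops the median was also 410 kb. With the GZ list limited to the number of CP loops by FDR, the GZ-only median was 395 kb (370 kb to 420 kb). The shared median under that limit is not given. The GZ-only share of GZ loops was 46.0% at over 100 kb to 200 kb (891 loops, 43.8% to 48.2%) and 45.2% at over 200 kb to 400 kb (1373 loops, 43.4% to 47.0%). It was 48.6% at over 400 kb to 800 kb (1484 loops, 46.8% to 50.4%) and 53.6% at over 800 kb to 2000 kb (1371 loops, 51.7% to 55.5%). The GZ-only share of the longest class thus had an interval above those of the other 3 classes. At the edges of the window, 89 loops spanned 110 kb and 3 spanned 2000 kb, and just outside it 64 GZ loops without a CP loop spanned 100 kb and 6 spanned 2010 kb.

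**Figure D1:**
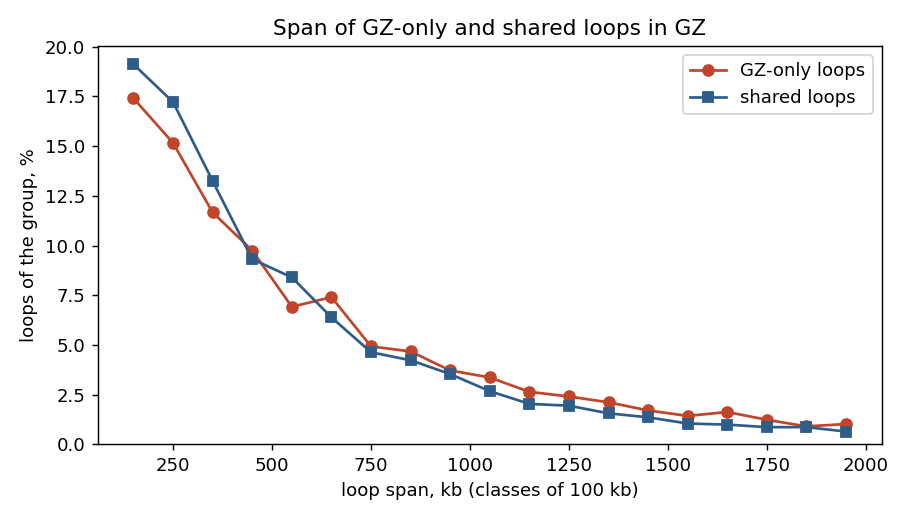
Share of GZ-only loops (circles, n = 5119) and of shared loops (squares, n = 5466) in each 100 kb class of span, in percent of the group. Both curves are highest in the shortest class, where GZ-only loops hold 17.4% of their number and shared loops 19.1% of theirs.

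GZ-only loops were weak loops of the GZ list. The ratio of observed contacts to those expected from the surrounding donut of bins had a median of 2.66 (quartiles 2.33 and 3.14), against 3.48 (quartiles 2.86 and 4.44) in shared loops and 2.62 in CP-only loops as counted in CP. A GZ-only loop rested on a median of 68 observed contacts where 26.0 were expected, and a shared loop on 124 where 35.8 were expected. The median FDR of GZ-only loops was 6.06e-07, against 6.20e-21 in shared loops. These contact values decided which loops entered each list, so they are given as a description. Among GZ-only loops 43.5% were a single pixel of the contact map, against 10.2% of shared loops. A ratio above 4 was found in 341 GZ-only loops (6.66%) and in 1894 shared loops (34.7%).

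The ratio grew with span in both groups, and GZ-only loops lay below shared loops in each span class. In the shortest class the median ratio was 2.27 in GZ-only loops and 3.08 in shared loops. In the longest class it was 3.13 in GZ-only loops and 3.97 in shared loops. Observed contacts ran the other way, with a median of 113 in the shortest and 48 in the longest class of GZ-only loops. The GZ-only share of GZ loops was 73.9% (1799 loops) where the ratio was over 2 and up to 2.5, 60.8% at over 2.5 to 3, 39.5% at over 3 to 4 and 15.3% above 4. Weak loops of the longer GZ list were thus those most often without a CP loop.

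**Figure D2:**
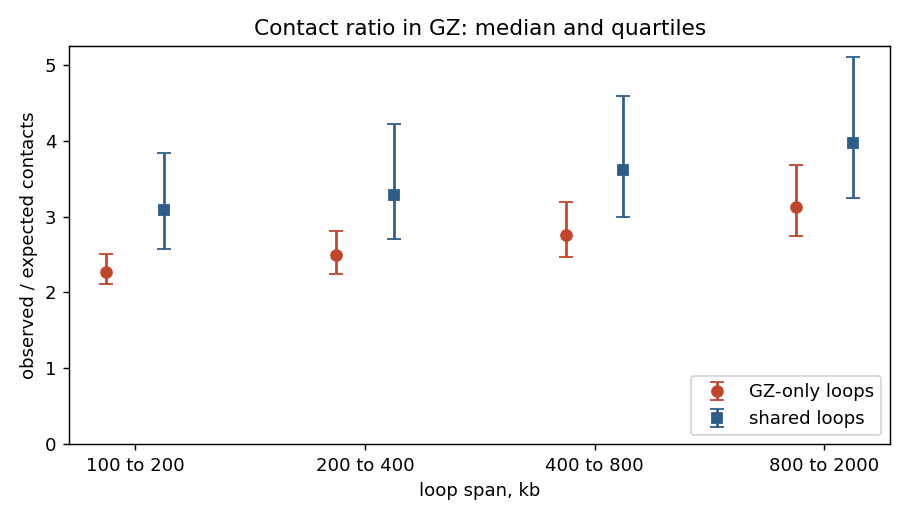
Observed over expected contacts in GZ for GZ-only loops (circles) and shared loops (squares) in 4 span classes, with points at the median and bars from the lower to the upper quartile. The GZ-only median lies below the shared median in each class, from 2.27 against 3.08 in the shortest to 3.13 against 3.97 in the longest.

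The distance to the nearest CP loop is the value that the rule used, so it only describes how far loops lay from its limit. For 3882 GZ-only loops (75.8%) no CP loop lay within 10 bins at both anchors. These rested on a median of 63 observed contacts, and the distance does not show whether such contacts were absent in CP. A further 754 had their nearest CP loop 6 to 10 bins away. Just inside the rule, 214 GZ-only loops had a CP loop 2 bins away, with a median ratio of 2.71 and 96.5 observed contacts. Just outside it, 1599 shared loops had a CP loop 1 bin away, with a median ratio of 3.21 and 103 observed contacts.

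Although the loops themselves had no CP counterpart, most of them used an anchor that also served a CP loop. In 1677 GZ-only loops (32.8%, 31.5% to 34.1%) both anchors lay within 1 bin of an anchor of some CP loop, in 2504 (48.9%) 1 anchor did, and in 938 (18.3%, 17.3% to 19.4%) neither did. As background, 12.6% of all autosomal bins lay within 1 bin of a CP loop anchor, against 55.6% of the distinct anchor bins of GZ-only loops and 41.2% of all autosomal bins with a GZ CTCF peak. In the mirrored count 930 of the CP-only loops (91.4%, 89.6% to 93.0%) had an anchor at an anchor of the longer GZ list. The 3 classes differed in span and strength. GZ-only loops with both anchors in use in CP spanned a median of 620 kb with a ratio of 2.83, those with 1 such anchor 440 kb with a ratio of 2.65, and those with none 290 kb with a ratio of 2.44. In 189 GZ-only loops (3.69%) a CP loop started from each anchor and both CP loops met at 1 place between them. The same count is not given for shared or CP-only loops, so this number does not show an excess in GZ-only loops.

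GZ-only loops were nested with shared loops, but lay inside one less often than shared loops lay inside each other. Of the 5119, 2282 (44.6%) lay inside a shared loop and 2499 (48.8%) enclosed one, with 755 doing both. Weighted to the same spans, 52.7% of shared loops lay inside another shared loop (51.4% to 53.9%) and 48.0% enclosed one (46.9% to 49.1%). Of CP-only loops at those spans 52.0% lay inside a shared loop (49.0% to 55.0%) and 43.5% enclosed one (40.8% to 46.2%). The loops inside had a median span of 340 kb and those that enclosed one 710 kb. Another 1093 GZ-only loops (21.4%) neither lay inside a shared loop nor enclosed one.

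CTCF was found at most anchors of GZ-only loops. A GZ CTCF peak with its summit in the anchor bin was present at both anchors of 2747 GZ-only loops (53.7%, 52.3% to 55.0%), at 1 anchor of 1777 (34.7%) and at neither of 595 (11.6%). As background, 9.84% of all autosomal 10 kb bins held a GZ CTCF peak, against 68.2% of the distinct anchor bins of GZ-only loops. Among shared loops 3433 (62.8%) had CTCF at both anchors and 533 (9.75%) at neither. The shared loops were not uniform in this. CTCF stood at both anchors in 69.5% of the 3867 with a CP loop in the same bins (68.0% to 70.9%), but in 46.7% of the 1599 with a CP loop 1 bin away (44.3% to 49.2%). GZ-only loops as a whole thus lay below the shared loops as a whole and above those 1 bin away. They were not uniform either. The share was 42.1% in the 214 GZ-only loops with a CP loop 2 bins away (35.6% to 48.8%). It was 73.0% in the 63 with one 4 bins away (61.0% to 82.4%) and 53.3% in the 3882 over 10 bins away.

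The comparison was repeated at equal span by weighting the shared loops to the span classes of the GZ-only loops. CTCF stood at both anchors in 53.7% of GZ-only loops and in 62.7% of span-weighted shared loops, a difference of -8.99 percentage points (-10.9 to -7.11). The shared value without weighting, 62.8%, was nearly the same. With both lists at equal length, by keeping the GZ loops of lowest FDR, the difference was -2.72 points (-5.30 to -0.13), and with CP loops matched in the same bin only it was -17.3 points. When the shared loops were weighted to the spans and also to the quartiles of observed over expected contacts, they had CTCF at both anchors in 53.1%, with 5117 GZ-only loops in classes that held shared loops. The difference was then 0.53 points (-1.80 to 2.86). Within narrow ranges of the ratio the order changed with the ratio. At over 2 to 2.5 the shares were 44.4% in GZ-only loops and 41.6% in shared loops, and at over 2.5 to 3 they were 57.7% in GZ-only loops and 56.2% in shared loops, with overlapping intervals. At over 3 to 4 the GZ-only share was 63.0% (60.3% to 65.7%) and the shared share 67.4% (65.3% to 69.5%). Above 4 the GZ-only share was 58.7% (53.4% to 63.8%) and the shared share 69.4% (67.3% to 71.4%).

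Loops with CTCF at neither anchor made up 11.6% of GZ-only loops and 9.98% of span-weighted shared loops, a difference of 1.64 points (0.45 to 2.83). This difference turned round when anchors were widened by 1 bin on each side, with 3.69% of GZ-only loops and 3.81% of shared loops (-0.12 points, -0.86 to 0.62). It was also negative with both lists at equal length (-1.79 points, -3.21 to -0.37). Among GZ-only loops the share with CTCF at both anchors was 47.5% in the shortest span class, 51.7% and 56.5% in the next classes and 56.6% in the longest. In shared loops the same 4 shares were 62.2%, 62.1%, 65.4% and 60.9%.

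**Figure D3:**
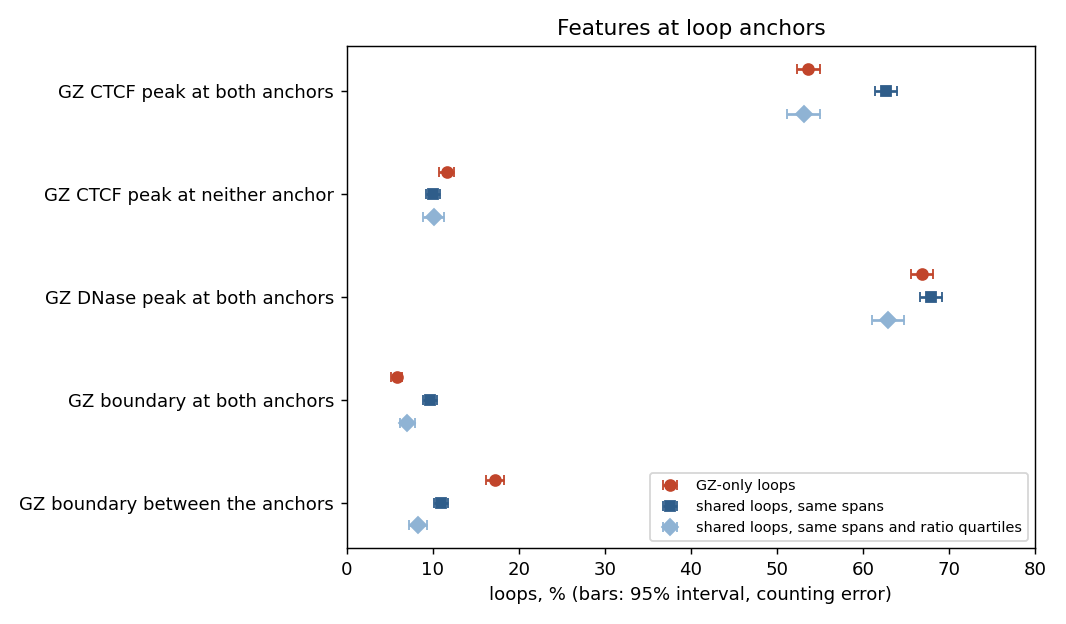
Share of loops with each feature, in percent, for GZ-only loops (circles), shared loops weighted to the same spans (squares) and shared loops weighted to the same spans and quartiles of observed over expected contacts (diamonds), with 95% intervals for counting error. For CTCF at both anchors the GZ-only value of 53.7% lies below the squares at 62.7% and beside the diamonds at 53.1%.

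CTCF at the anchors of GZ-only loops was mostly not particular to GZ. In 2006 GZ-only loops (39.2%) both anchors held a CTCF peak in the GZ list and in the CP list, and in 741 (14.5%) both did in GZ but not in CP. The CP list of CTCF peaks is shorter, with 21476 autosomal peaks against 29938 in GZ, and 7.19% of all autosomal bins held a CP CTCF peak. CTCF at both anchors in GZ but not in CP was found in 11.7% of span-weighted shared loops, 2.81 points less than in GZ-only loops (interval of the difference 1.52 to 4.10). With the contact ratio also weighted the difference was 2.79 points (1.23 to 4.34).

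The same was seen peak by peak. Of the 6835 GZ CTCF peaks in anchor bins of GZ-only loops, 1410 (20.6%, 19.7% to 21.6%) overlapped no CP CTCF peak, against 34.5% of all autosomal GZ CTCF peaks. At shared loops the share was 16.5% (15.7% to 17.4%), also with the full lists. With the GZ list limited to the number of CP peaks the share at GZ-only anchors was 12.3%. With only the peaks at or above the median −log10 q of each list it was 30.3%. Shares under these limits are not given for shared anchors or all peaks, so neither value can be set beside those of the full lists. CTCF peaks at GZ-only anchors had a median fold enrichment of 17.5 in the authors' list, against 18.3 at shared anchors and 13.8 over all autosomal GZ peaks. A GZ CTCF peak without a CP peak stood at 1 anchor or more of 1538 GZ-only loops (30.0%) and at each anchor of 131 (2.56%). The same counts are not given for shared loops, so these numbers do not show an excess in GZ-only loops.

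GZ-only loops whose anchors served no CP loop had the least CTCF. GZ CTCF stood at both anchors in 62.3% of GZ-only loops with both anchors in use in CP (60.0% to 64.6%), in 52.7% of those with 1 such anchor (50.7% to 54.6%) and in 40.8% of those with none (37.7% to 44.0%). It was at neither anchor in 7.33%, 10.9% and 21.1% of these 3 classes. Of the CTCF peaks in GZ-only anchor bins away from any CP loop anchor, 27.2% overlapped no CP peak (25.5% to 29.0%), against 16.7% in GZ-only anchor bins at a CP loop anchor (15.6% to 17.8%). These classes also differed in span and contact ratio, given above, and the part of these in the result was not tested.

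Open chromatin was frequent at GZ-only anchors, and at equal span its differences from shared anchors were about 1 to 2 percentage points. A GZ DNase peak was present at both anchors of 3425 GZ-only loops (66.9%, 65.6% to 68.2%) and at neither of 290 (5.67%), while 24.0% of all autosomal bins held a GZ DNase peak. In shared loops weighted to the same spans both anchors were open in 67.9%, a difference of -1.02 points (-2.82 to 0.77). With the contact ratio also weighted, the shared value was 62.9% and the difference 3.97 points (1.68 to 6.25). In the CP library 3045 GZ-only loops (59.5%) had a DNase peak at both anchors, where 20.7% of all bins held one. At equal span this was 61.6% in shared loops, a difference of -2.17 points (-4.04 to -0.29). The CP difference turned to 2.67 points (0.31 to 5.02) with the contact ratio also weighted. With anchors widened by 1 bin it was -0.41 points (-1.79 to 0.97). GZ DNase at neither anchor differed by -1.04 points (-1.97 to -0.11), with 6.71% in shared loops. Weighting the contact ratio as well made this -0.71 points, with an interval that held 0 (-1.85 to 0.43).

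Most open sites at GZ-only anchors were open in both tissues. Of 9112 GZ DNase peaks in GZ-only anchor bins, 2150 (23.6%, 22.7% to 24.5%) overlapped no CP DNase peak, against 46.9% of all autosomal GZ DNase peaks. At shared loops this share was 21.7% (20.9% to 22.6%). It was 27.4% (26.0% to 28.9%) in GZ-only anchor bins away from CP loop anchors and 20.8% (19.7% to 21.9%) in those at a CP loop anchor. DNase peaks at GZ-only anchors had a median normalized tag count of 1.01, against 0.956 at shared anchors and 0.656 over all autosomal GZ peaks.

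A small class of GZ-only loops joined open sites without CTCF. In 200 GZ-only loops (3.91%, 3.41% to 4.47%) both anchors held a GZ DNase peak and neither held a GZ CTCF peak. In shared loops weighted to the same spans this was 1.45%, a difference of 2.46 points (1.84 to 3.07), and with the contact ratio also weighted it was 2.23%, a difference of 1.67 points (0.86 to 2.49). In CP-only loops, with the same GZ peaks and without weighting, the class held 51 loops (5.01%, 3.83% to 6.53%). That interval overlapped the interval of GZ-only loops. For GZ-only loops with at least as many observed contacts as the median shared loop, the difference from all shared loops of the same spans was 0.55 points (-0.83 to 1.94). With anchors widened by 1 bin the class was 2.52% of GZ-only loops and 0.974% of span-weighted shared loops. Neither CTCF nor DNase peaks were found at either anchor of 226 GZ-only loops (4.41%) and of 286 shared loops (5.23%).

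CTCF lay more often just outside than just inside the anchors. Over both anchors of all GZ-only loops, 71.0% of anchor bins held a GZ CTCF peak, 26.5% of the next bins outward and 17.4% of the next bins inward. At 20 kb the shares were 16.1% outward and 10.1% inward, and at 100 kb 13.2% outward and 9.89% inward. Shared loops had the same order, with 28.0% outward and 18.9% inward at 10 kb. For DNase the GZ-only shares were 80.6% at the anchor, 39.3% at 10 kb outward and 33.9% at 10 kb inward.

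**Figure D4:**
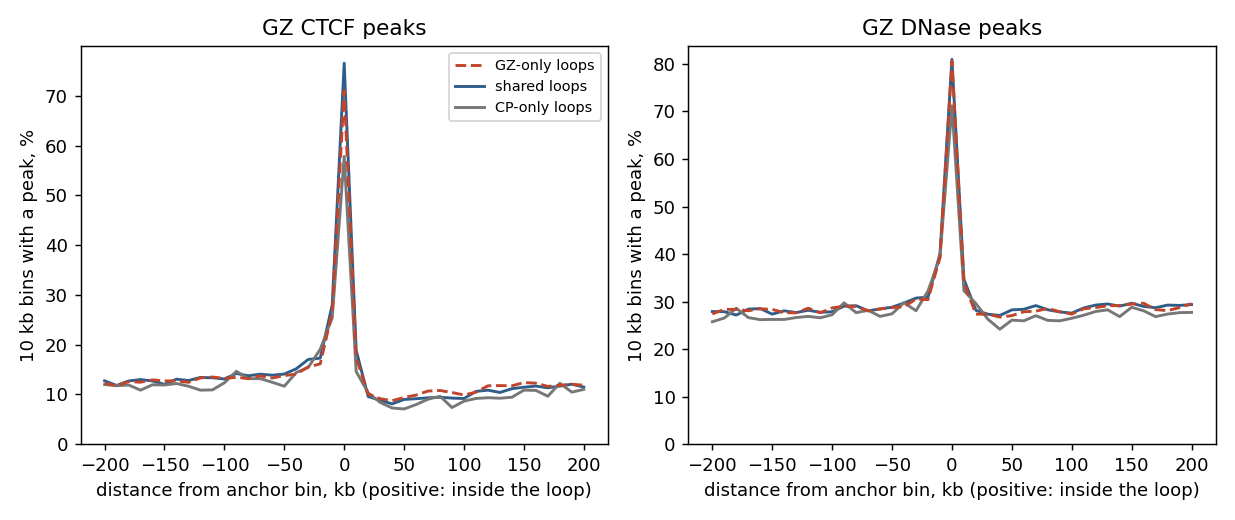
Share of 10 kb bins with a GZ CTCF peak (left) or a GZ DNase peak (right), in percent, by distance from the anchor bin in kb, with positive distances pointing into the loop. Dashed lines are GZ-only loops and solid lines are shared and CP-only loops. CTCF reaches 71.0% at GZ-only anchors, 76.5% at shared anchors and 57.8% at CP-only anchors, and it is lower inside than outside at 20 kb. For the 891 GZ-only loops of up to 200 kb, the farthest inward bins reach or pass the other anchor.

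Domain boundaries lay near both anchors in a smaller share of GZ-only loops than of shared loops at equal span. The share of all autosomal bins near a boundary was not counted. The values below thus do not show whether boundaries were frequent or scarce at these anchors against the genome. A GZ boundary lay within 40 kb of both anchors in 297 GZ-only loops (5.80%, 5.19% to 6.48%), of 1 anchor in 1904 (37.2%) and of neither in 2918 (57.0%). Span-weighted shared loops had boundaries at both anchors in 9.67%, a difference of -3.86 points (-4.89 to -2.84). With the contact ratio also weighted the difference was -1.25 points (-2.34 to -0.17). When a boundary had to overlap the anchor bin, 0.645% of GZ-only loops had one at both anchors and the interval of the difference held 0 (-0.28 points, -0.62 to 0.07). Boundaries and loops come from the same Hi-C libraries, so boundaries are not an independent readout of these loops.

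GZ-only loops reached across a boundary more often than shared loops, except where a limit on contacts was put on GZ-only loops alone. At least 1 GZ boundary lay between the anchors, over 40 kb from each, in 882 GZ-only loops (17.2%, 16.2% to 18.3%). In span-weighted shared loops the share was 10.9%, a difference of 6.31 points (4.98 to 7.64), and with the contact ratio also weighted it was 8.28%, a difference of 8.94 points (7.50 to 10.4). With both lists at equal length the difference was 2.69 points (1.05 to 4.34). A further comparison took the 711 GZ-only loops with at least as many observed contacts as the median shared loop, with a median span of 200 kb. Set against all shared loops of the same spans, they differed by -1.62 points (-2.94 to -0.30). Shared loops were not limited by contacts there, so loops with many contacts were not compared with each other. Without weighting, a GZ boundary lay between the anchors in 13.5% of CP-only loops (11.5% to 15.7%) and 9.79% of shared loops. The share of boundaries without a CP counterpart near GZ-only anchors was close to that of all GZ boundaries. Of 1468 GZ boundaries near GZ-only anchors 241 (16.4%, 14.6% to 18.4%) had no CP boundary within 40 kb, against 16.0% near shared anchors and 18.6% of all 2704 autosomal GZ boundaries.

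GZ-only loops and CP-only loops were each the loops of 1 list without a counterpart, and they had similar median contact ratios. They were not chosen on equal terms, since a CP-only loop had to be absent from the longer GZ list. That list had 14632 autosomal loops, against 9138 in CP. CP-only loops were also less well supported, with 58.9% a single pixel against 43.5% of GZ-only loops. Their median FDR was 5.49e-06, against 6.06e-07 in GZ-only loops. The part of this in the values below was not tested. The groups differed in what lay at their anchors. With peaks of the own tissue and at the spans of the GZ-only loops, CTCF stood at both anchors in 53.7% of GZ-only loops and 34.2% of CP-only loops (difference 19.4 points, 16.2 to 22.7). CTCF was at neither anchor in 11.6% of GZ-only loops and 25.4% of CP-only loops, and DNase peaks were at both anchors in 66.9% of GZ-only loops and 53.5% of CP-only loops (difference 13.4 points, 10.1 to 16.8). The CP peak lists are shorter, so each list was also used for both groups, without weighting. GZ CTCF peaks stood at both anchors in 53.7% of GZ-only loops and 38.4% of CP-only loops (35.5% to 41.5%). CP CTCF peaks did so in 40.6% of GZ-only loops (39.3% to 42.0%) and 34.2% of CP-only loops (31.4% to 37.2%). CP DNase peaks were at both anchors in 59.5% of GZ-only loops and 53.7% of CP-only loops (50.6% to 56.7%). The gap thus kept its direction with either list and was smaller with the CP lists. Boundaries of the own tissue at both anchors differed by -0.21 points (-1.87 to 1.44).

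GZ-only loops were spread over all 20 autosomes. Their share of GZ loops ran from 45.6% on chromosome 14 to 53.4% on chromosome 17, and the interval of each of the 20 chromosomes held the share over all autosomes. Their density ran from 1.36 per Mb on chromosome 5 to 2.62 per Mb on chromosome 10. CTCF stood at both anchors in 45.2% of GZ-only loops on chromosome 6 and in 67.2% on chromosome 19. On 18 of 20 chromosomes that share was lower in GZ-only than in shared loops.

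The GZ-only loops with the highest contact ratios had almost no contacts expected and no CTCF. The highest ratio, 41.5, belonged to a loop on chromosome 8 between 43780001 to 43790000 and 44130001 to 44140000 (rheMac8), which rested on 12 observed contacts where 0.289 were expected. The next, with a ratio of 30.2, lay on chromosome 14 (32230001 to 32240000 with 33620001 to 33630000) and rested on 20 observed contacts where 0.663 were expected. The third, with a ratio of 27.5, lay on chromosome 3 (39510001 to 39520000 with 40440001 to 40450000) and rested on 59 observed contacts where 2.14 were expected. None of these 3 loops had a CTCF peak or a GZ DNase peak at either anchor, and their high ratios rest on few expected contacts. Such loops were rare, since 68 GZ-only loops (1.33%) had under 5 contacts expected.

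The highest ratio among GZ-only loops with CTCF at both anchors was 7.32, on chromosome 5 between 92330001 to 92340000 and 93630001 to 93640000, a span of 1300 kb. It rested on 26 observed contacts where 3.55 were expected. Each of its anchors held 1 CTCF peak and 1 DNase peak in GZ and also 1 of each in CP, lay near a boundary in both tissues and served some CP loop. Its nearest CP loop was 52 bins away, so everything marked here at its anchors was present in CP while the loop was not listed there.

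The GZ-only loop of highest ratio with CTCF at 1 anchor, 18.8, spanned 1550 kb on chromosome 2, from 56610001 to 56620000 to 58160001 to 58170000. It had 14 contacts observed and 0.743 expected, and its CTCF peak was not matched by a CP peak in that bin. The one of highest ratio with a GZ CTCF peak without a CP peak at each anchor spanned 1050 kb on chromosome 12, from 63140001 to 63150000 to 64190001 to 64200000. It had 177 contacts observed and 29.2 expected, a ratio of 6.07, and boundaries of both tissues near both anchors. Its first anchor held 2 CTCF peaks in GZ and 1 in CP, its second anchor 1 in GZ and 0 in CP, and a CP loop lay 2 bins away. It is thus just inside the rule.

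The highest ratio among GZ-only loops 2 bins from a CP loop was 13.2, on chromosome 6 between 174320001 to 174330000 and 174660001 to 174670000. It rested on 335 observed contacts where 25.3 were expected, with no CTCF peak at either anchor. The highest ratio among shared loops 1 bin from a CP loop was 25.4, on chromosome 19 between 49320001 to 49330000 and 50500001 to 50510000, from 61 observed contacts where 2.40 were expected. Both lie at the limit that separates the groups.

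Most anchor bins carried a single GZ-only loop. Of the 8260 bins, 6629 (80.3%) had 1, 1342 had 2 and 244 had 3, and 1631 (19.7%) had 2 or more. The bin with the most GZ-only loops lay on chromosome 9 at 73130001 to 73140000 and had 9 of them, against at most 6 at any other bin. In that hub 6 loops ran to lower and 3 to higher positions, over spans of 190 kb to 1030 kb.

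The hub bin held 2 CTCF peaks in GZ and 2 in CP, and 1 DNase peak in GZ and 2 in CP. Within 1 bin of it the GZ list had 10 loops and the CP list had 1. The longest hub loop reached 72100001 to 72110000 and had a ratio of 3.15 from 32 observed contacts. The shortest reached 72940001 to 72950000 and had a ratio of 2.16 from 91 observed contacts. Of the 9 far anchors 6 held a GZ CTCF peak, and the 3 without one lay at 300 kb, 850 kb and 1030 kb. The far anchors open in GZ were also open in CP, with the same number of DNase peaks in both tissues at each of the 9.

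**Figure D5:**
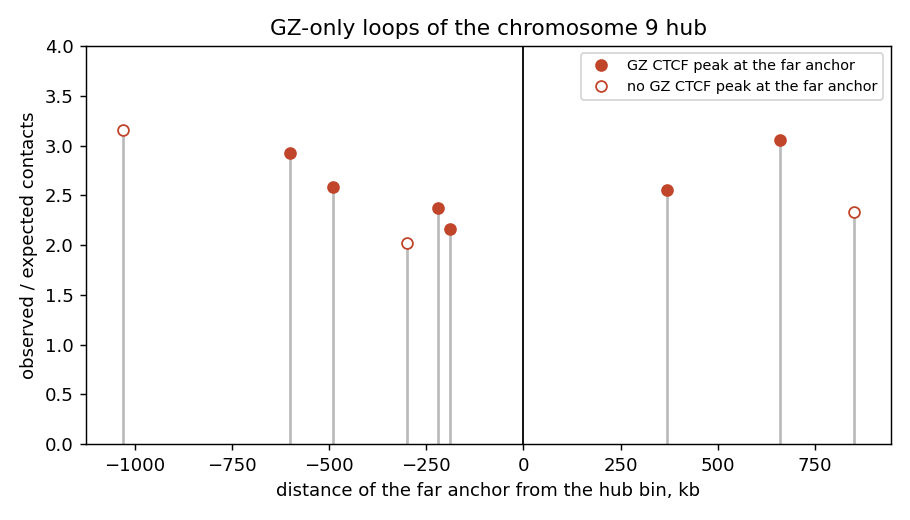
The 9 GZ-only loops of the hub bin on chromosome 9, with the signed distance of the far anchor from the hub bin in kb on the x axis and observed over expected contacts in GZ on the y axis. Filled points have a GZ CTCF peak at the far anchor. Ratios lie between 2.02 and 3.15, and far anchors with and without CTCF are interleaved.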

How the data were processed

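Loops were called by the authors with HiCCUPS at 10 kb, per the labels' file names, with 1 deposited list per tissue for its 3 libraries, taken as pooled. Per the file headers, each loop has an observed contact count, a signal expected from the donut of bins around it, and an FDR (a q-value). Boundary strengths are deposited scores on 40 kb bins of rheMac8. For CTCF the authors deposited MACS2 peaks with summits, and each peak has a caller's score, a fold over background and a −log10 q. The peak names contain the word merge, and the use of the input libraries is unknown. DNase peaks of 146 bp are from HOMER, with score and normalized tag signal per the file headers. The submitters' processing notes list rheMac8 and, among other tools, HiC-Pro, Bowtie2 and SAMtools, without versions. Read totals of CTCF and DNase libraries are unknown. The submitters later replaced contact files and added Hi-C runs, and it is unknown here whether the loop lists include them.

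A peak belonged to an anchor when its CTCF summit or DNase centre lay in the 10 kb bin. Peaks matched between tissues when they overlapped by at least 1 bp. Shared loops were weighted to the GZ-only loops by span classes of 100 kb (direct standardization), and also by quartiles of the contact ratio. All autosomal bins were counted up to the largest coordinate in any file, so they include unassembled sequence. Named loops are the 3 with the highest contact ratio, the first with CTCF at both, at 1 and at neither anchor where not yet named, the first with a GZ CTCF peak without a CP peak at each anchor, the bin with the most GZ-only loops, and the first on each side of the 1 bin tolerance. Python 3.11.15 with numpy 2.4.6, pandas 2.3.3 and scipy 1.17.1 was used, and matching was tested on simulated lists. The RNA table was not used here, since gene positions on rheMac8 were not at hand, and no sequence of anchors is shown for the same reason. The loops and comparisons were chosen with earlier results of these data known.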

Additional observations from a re-analysis of the deposited data

How the results depend on the processing

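No paired analysis was possible because each tissue has 1 pooled Hi-C list and 1 library each for CTCF and DNase, so no replicate could be left out either. Comparisons with RNA at the anchors were not run, since gene positions on the build of the loops were not at hand. The GZ-only loops with CTCF at both anchors and the difference from shared loops depend on the strength of the loops compared. The cause of the changes below was not tested. Differences are GZ-only minus span-weighted shared loops in percentage points, and values not named stayed within their interval (numbers of loops within 1.5 times).

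With a CP match in the same bin only, the median contact ratio was 2.76, CTCF at both anchors 52.0%, DNase at both 64.4%, boundaries at both 6.92% and loops sharing an anchor with a CP loop 75.1%. The differences were -17.3 (CTCF at both), -8.41 (DNase at both), -2.20 (boundaries at both) and 4.91 (boundary between anchors). With a match within 2 or 5 bins, 84.5% and 89.7% shared an anchor with a CP loop.

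With the GZ list limited to the number of CP loops by FDR, 1846 loops were GZ-only, with a median span of 395 kb and ratio of 2.93. CTCF stood at both anchors in 63.7% and at neither in 6.93%, DNase at both in 71.4%, boundaries at both in 6.83%, and 85.6% shared an anchor with a CP loop. Anchor peaks without a CP peak were 18.1% for CTCF and 22.6% for DNase. The differences were -2.72 (CTCF at both), -1.79 (CTCF at neither, reversed), -2.56 (boundaries at both), 2.69 (boundary between anchors) and 1.23 (open without CTCF).

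With observed contacts at or above the shared median, a limit put on GZ-only loops alone, 711 remained in the group, with a median span of 200 kb and ratio of 2.45. CTCF stood at both anchors in 62.0% and at neither in 6.33%, DNase at both in 73.7%, boundaries at both in 3.94%, and 80.3% shared an anchor with a CP loop. Anchor peaks without a CP peak were 18.1% for CTCF and 22.1% for DNase. The differences were -0.74 (CTCF at both), -4.02 (CTCF at neither, reversed), 4.09 (DNase at both), -1.62 (boundary between anchors, reversed) and 0.55 (open without CTCF, -0.83 to 1.94).

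Up to 1 Mb the median span was 370 kb and the ratio 2.57, boundaries stood at both anchors in 4.84%, 80.2% shared an anchor, and the differences were 2.88 (CTCF at neither) and 4.40 (boundary between anchors). With only CTCF peaks at or above the median −log10 q, CTCF stood at both anchors in 29.2% and at neither in 26.7%, 30.3% of anchor peaks had no CP peak, and the differences were -6.22 (both), 3.18 (neither) and 4.11 (open without CTCF). With only DNase peaks at or above the median score, both anchors were open in 46.4%, 26.1% of anchor peaks had no CP peak and the difference was 1.37. With anchors widened by 1 bin, CTCF stood at both anchors in 78.4% and at neither in 3.69%, and DNase at both in 91.5%. Anchor peaks without a CP peak were then 24.2% for CTCF and 30.9% for DNase, and the differences -0.12 (CTCF at neither, reversed), 1.07 (DNase at both) and 1.55 (open without CTCF).

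With peak centres within 1 kb as a match, 19.3% of CTCF and 17.2% of DNase anchor peaks had no CP peak, and with GZ peaks limited to the number of CP peaks 12.3% and 21.9%. Boundaries overlapping both anchor bins were found in 0.645% (difference -0.28, -0.62 to 0.07), and boundaries within 80 kb in 13.0% (difference -6.27). With span and contact ratio weighted together the differences were 0.53 (CTCF at both, reversed), 3.97 (DNase at both), -1.25 (boundaries at both), 8.94 (boundary between anchors) and 1.67 (open without CTCF). With span classes of 50 kb, with no weighting, and with 5 or more expected contacts (chosen after seeing the data) all values stayed within their intervals. Counting error was widest for the 711 loops with many contacts, where the interval of the CTCF difference at both anchors ran from -4.71 to 3.23 points.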
